A study of Homo sapiens with 12 samples.

Results

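A total of 32 genes of the NF-kB cytokine and chemokine response was followed in 3 human hepatocellular carcinoma cell lines with and without lactate. The genes were chosen by symbol from a list, all 32 were present among the 62710 genes of the deposited tables, and all 32 were among the 18355 genes with enough counts to test. CSF2, CSF3 and IL1A had so few counts in PLC/PRF/5 and SNU475 that they entered the test only through HLF. The groups were PLC/PRF/5, HLF and SNU475 cells exposed for 24 h to 20 mM lactate, added as lactic acid, and control cells of the same 3 lines without added lactate. Each of the 6 groups had 2 RNA-seq libraries, 12 in all, and the labels name no genetic alteration in any group. Each line is a single established culture line, so a difference between lines is a difference between 3 cultures and not between classes of tumour. Whether both libraries of a group stem from separate dishes is not given in the labels, and the p-values therefore reflect the scatter among these libraries, which may be technical.

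NF-kB is a family of dimeric transcription factors held in the cytoplasm by inhibitor proteins of the IkappaB family. Receptors for TNF, interleukin 1 and microbial products activate kinases that mark the inhibitors for degradation, and the freed dimers enter the nucleus and switch on cytokines, chemokines and adhesion molecules together with their own inhibitors. In the liver the pathway is known for the acute phase response, the recruitment of neutrophils and monocytes, and inflammation-driven tumour growth.

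Promoter sequences of RefSeq (GRCh38.p14, from 250 bases before to 50 bases after the start) were matched for 25 of the 32 genes. C3, CCL2, CSF1, CSF3, LIF, NFKBIE and RELB had no entry. The NF-kB site consensus, named kappaB here and searched on both strands, was present in 13 of these 25 promoters (52.0%), against 3956 of 35116 promoters in the whole table (11.3%). The members were listed as NF-kB response genes, so their higher share is no independent result. For members 1 promoter per gene was taken, and for the whole table every entry. The AP-1 motif TGANTCA, searched on both strands as well, was present in 3 of 25 (12%), against 7.71% of all promoters. The sequences below run from 120 to 21 bases before the RefSeq start for 10 genes picked by hand after their values were seen. Matches to kappaB are in capitals, and overlapping matches are merged into 1 stretch. Most of the 10 have a match, so they do not stand for the 25. IRAK2 and NFKB2, for example, had no match and are not shown.
CXCL1 (chr4:73869273-73869372, plus strand): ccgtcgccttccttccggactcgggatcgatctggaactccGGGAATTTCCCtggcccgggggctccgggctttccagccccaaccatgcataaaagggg
CXCL2 (chr4:74099216-74099315, minus strand): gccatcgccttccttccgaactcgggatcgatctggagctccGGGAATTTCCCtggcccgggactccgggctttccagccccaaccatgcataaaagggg
CXCL3 (chr4:74038710-74038809, minus strand): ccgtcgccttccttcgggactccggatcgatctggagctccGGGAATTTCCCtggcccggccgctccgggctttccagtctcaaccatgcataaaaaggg
CXCL5 (chr4:73998698-73998797, minus strand): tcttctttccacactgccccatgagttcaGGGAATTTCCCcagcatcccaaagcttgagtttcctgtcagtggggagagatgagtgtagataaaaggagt
CXCL6 (chr4:73836558-73836657, plus strand): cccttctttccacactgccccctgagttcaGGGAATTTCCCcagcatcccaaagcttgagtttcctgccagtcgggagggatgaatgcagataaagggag
CXCL8 (chr4:73740449-73740548, plus strand): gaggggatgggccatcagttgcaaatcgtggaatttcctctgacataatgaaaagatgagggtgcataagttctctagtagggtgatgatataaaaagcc
CCL20 (chr2:227813722-227813821, plus strand): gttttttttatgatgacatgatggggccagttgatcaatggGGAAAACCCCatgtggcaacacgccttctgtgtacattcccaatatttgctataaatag
IL6 (chr7:22727080-22727179, plus strand): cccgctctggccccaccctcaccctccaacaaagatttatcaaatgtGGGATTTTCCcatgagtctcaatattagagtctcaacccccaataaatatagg
IL32 (chr16:3065283-3065382, plus strand): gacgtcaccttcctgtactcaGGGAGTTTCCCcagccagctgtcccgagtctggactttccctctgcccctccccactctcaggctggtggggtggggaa
VCAM1 (chr1:100719622-100719721, plus strand): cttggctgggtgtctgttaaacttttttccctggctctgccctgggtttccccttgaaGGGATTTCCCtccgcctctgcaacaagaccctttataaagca
In the GENCODE 29 annotation of GRCh38 the CXCL genes lie between CXCL8 (chr4:73740506-73743716) and CXCL2 (chr4:74097035-74099293), IL6 at chr7:22725884-22732002, CCL20 at chr2:227805739-227817564, IL32 at chr16:3065297-3082192 and VCAM1 at chr1:100719742-100739045. The GENCODE spans begin before the RefSeq starts for some genes, so the windows of CCL20, IL6 and CXCL6, among others, lie inside them. The build behind the deposited tables is not given in the sources used here. CXCL1, CXCL2, CXCL3, CXCL5 and CXCL6, neighbours on chromosome 4, carried the same stretch GGGAATTTCCC, which begins 78 to 91 bases before the start. CXCL8, from the same cluster, had no match to the consensus in its window. A match describes the letters only, and a window without one says nothing of the factor.

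Library totals ranged over 16533448 to 22187797 counts. The share of mitochondrially encoded transcripts lay between 3.39% and 15.1%, and was 8.50% and 13.9% in the SNU475 lactate libraries and 8% and 15.1% in the SNU475 control libraries. In HLF it was 5.49% and 3.93% in the lactate libraries, against 9.52% and 3.39% in the control libraries. The summed level of 9 hepatocyte markers was 2860 to 6114 CPM (counts relative to TMM-scaled library size) in PLC/PRF/5 libraries, 4.11 to 7.01 CPM in HLF and 3.54 to 7.46 CPM in SNU475, and APOB, a defining hepatocyte gene, had 0 counts in all 8 HLF and SNU475 libraries. In SNU475 7 stellate cell or fibroblast markers summed to 1869 to 2675 CPM, against 62.1 to 139 CPM in HLF and 3.28 to 7.08 CPM in PLC/PRF/5. Lymphocyte markers summed to at most 0.363 CPM in any library. The 10 macrophage or monocyte markers summed to 95 to 205 CPM in PLC/PRF/5, 141 to 197 CPM in HLF and 61 to 172 CPM in SNU475, mostly from LYZ in PLC/PRF/5 (77 and 135 CPM in its controls) and CD68 in HLF (196 and 144 CPM) and SNU475 (94.1 and 52.6 CPM). CD68 was lower in PLC/PRF/5 than in HLF (log2 fold change -3.07 ± 0.35, adjusted p = 3.25e-05). PTPRC, the leukocyte common antigen, had 0 counts in every PLC/PRF/5 and HLF library and 1.24 and 0.575 CPM in the SNU475 controls, where CD14 was at 30.5 and 6.04 CPM. The part of these markers in the results below was not tested.

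**Figure D1:**
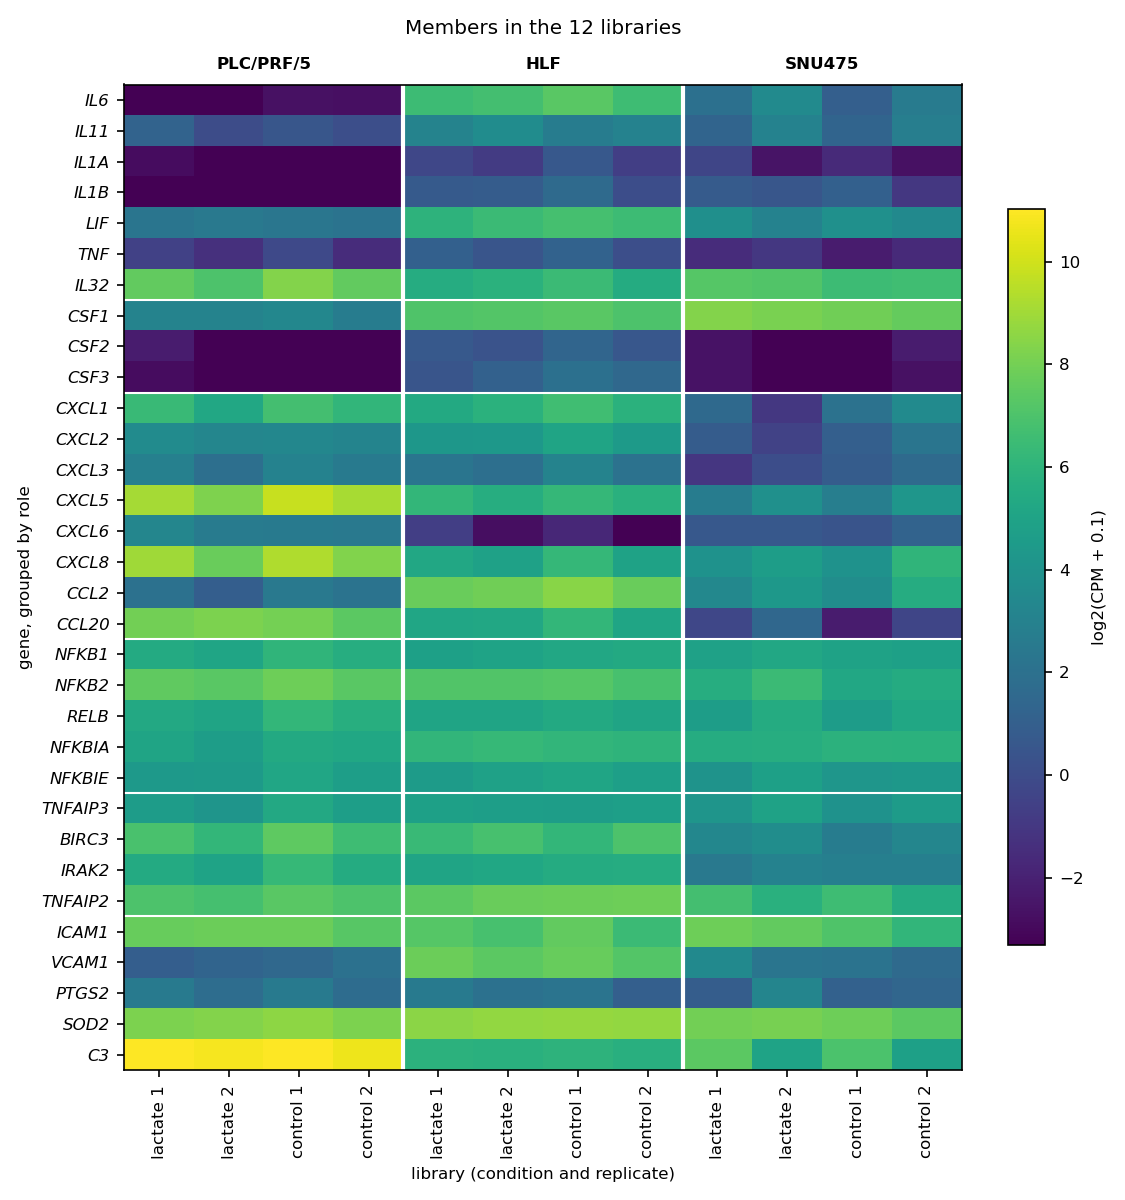
Level of the 32 genes (rows, grouped by role) in the 12 libraries (columns, by line, with lactate left of control), as log2(CPM + 0.1). Line differences stand out by eye: C3 and CXCL5 are brightest in the PLC/PRF/5 columns, IL6, CCL2 and VCAM1 in the HLF columns.

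The untreated lines carried different parts of the programme. PLC/PRF/5 was high in complement C3, IL32 and the chemokines CXCL5, CXCL8 and CCL20, and low in CSF1. HLF was high in IL6, LIF, CCL2 and VCAM1, and SNU475 was low in CCL20, CXCL1, CXCL5, BIRC3 and IRAK2. Each call below is an edgeR quasi-likelihood test at an adjusted p of 0.05 over all genes, and the 3 comparisons share control libraries. In PLC/PRF/5 against HLF 18 of the 32 genes were called (43% of all genes tested), of which 6 were higher (21.7%) and 12 lower (21.3%). In PLC/PRF/5 against SNU475 22 were called (48.7%), of which 15 were higher (22.4%) and 7 lower (26.3%). In HLF against SNU475 18 were called (39%), of which 16 were higher (17.2%) and 2 lower (21.9%). IL1A, CSF2 and CSF3 had to be high in HLF to be tested, and without these 3 genes 9 were lower in PLC/PRF/5 than in HLF and 14 higher in HLF than in SNU475. The median log2 fold change of the 32 genes was 0.08 for PLC/PRF/5 over HLF, 0.96 for PLC/PRF/5 over SNU475 (0.99 with genes at 0 counts set to their bound and 2 without a fold left out) and 1.54 for HLF over SNU475, against 0.00, -0.03 and 0.00 over all genes tested. Without the PLC/PRF/5 control library 1, the count for PLC/PRF/5 against SNU475 was 14 in place of 22 (32% of all genes), and the calls lost were those for IL11, CXCL2, CXCL3, NFKB1, RELB, NFKBIA, TNFAIP2 and SOD2. In bulk RNA, fewer producing cells and less RNA per cell cannot be told apart.

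By deposited TPM, which allows levels of different genes to be compared, the leading genes differed by line. In untreated PLC/PRF/5 C3 led with 1253 ± 94.3 TPM (mean ± SD, n = 2, here and below), followed by IL32 at 619 ± 215 TPM and CCL20 at 543 ± 153 TPM. CCL2 led in untreated HLF with 672 ± 102 TPM, ahead of the mitochondrial superoxide dismutase SOD2 at 394 ± 41 TPM. IL32 led in untreated SNU475 with 158 ± 15.2 TPM, ahead of SOD2 at 133 ± 51.8 TPM. The 8 chemokines summed to 2170.3 and 1337 TPM in the PLC/PRF/5 controls, 1134 and 884 TPM in the HLF controls and 60.3 and 162 TPM in the SNU475 controls.

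Of the 7 cytokines, 1 was higher (21.7% of all genes) and 5 were lower (21.3%) in PLC/PRF/5 than in HLF. The 5 include IL1A, which had to be high in HLF to be tested. Against SNU475, 1 was higher (22.4%) and 4 were lower (26.3%) in PLC/PRF/5. In HLF against SNU475, 3 were higher (17.2%) and 0 lower (21.9%). IL6, which signals through the receptor subunit glycoprotein 130, separated the lines most widely. IL6 was at 0.0564 and 0.0498 CPM in untreated PLC/PRF/5, 164 and 93.8 CPM in HLF and 1.91 and 6.16 CPM in SNU475. The PLC/PRF/5 values stand on 2 counts, against 5077 in HLF, a ratio of 2456 in favour of HLF with a 95% counting interval of 680 to 20287. All 3 pairs of lines were called for IL6, lower in PLC/PRF/5 than in HLF (adjusted p = 6.52e-06) and SNU475 (adjusted p = 0.000881), and higher in HLF than in SNU475 (log2 fold change 5.00 ± 0.61, adjusted p = 0.000124). Exons of IL6 overlap STEAP1B on the opposite strand, and the strand setting of the counting is not given in the sources used here.

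LIF, a cytokine of the same receptor family, followed the same order at 4.9 and 4.38 CPM in untreated PLC/PRF/5, 113 and 91.6 CPM in HLF and 14.5 and 11.1 CPM in SNU475. No 2 lines overlapped. The differences were -4.46 ± 0.32 on the log2 scale for PLC/PRF/5 over HLF (± SE, adjusted p = 9.56e-07), -1.46 ± 0.29 for PLC/PRF/5 over SNU475 (adjusted p = 0.00176) and 3.0 ± 0.29 for HLF over SNU475 (adjusted p = 1.69e-05). IL11, which also signals through that subunit, was lower in PLC/PRF/5 than in HLF (adjusted p = 0.00978), and its call against SNU475 (adjusted p = 0.033) was lost without the SNU475 control library 2 (adjusted p = 0.309) or the PLC/PRF/5 control library 1 or 2 (adjusted p = 0.0964 and 0.163). Its call against HLF was lost without PLC/PRF/5 control library 2 (adjusted p = 0.0784). With the replicate number as a block IL11 was also higher in HLF than in SNU475 (adjusted p = 0.0437).

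IL32, a pro-inflammatory cytokine, was highest in PLC/PRF/5. It was at 324 and 191 CPM in untreated PLC/PRF/5, 88.1 and 44.9 CPM in HLF and 91.6 and 96.7 CPM in SNU475. PLC/PRF/5 lay above both other lines, with log2 fold change 1.95 ± 0.34, adjusted p = 0.000721 against HLF and log2 fold change 1.45 ± 0.33, adjusted p = 0.0039 against SNU475, while HLF against SNU475 missed the threshold (adjusted p = 0.249). The alarm cytokines IL1A and IL1B had 0 counts in both PLC/PRF/5 controls, against 39 and 78 in HLF. Taking 3 counts over the group as the floor, they were at least 12.6-fold lower and at least 25.2-fold lower than HLF. With counting error the 95% lower limits were 9.75-fold and 20.0-fold. The call for IL1A against HLF was lost without HLF control library 1 (adjusted p = 0.0527), PLC/PRF/5 control library 1 (adjusted p = 0.0509) or PLC/PRF/5 control library 2 (adjusted p = 0.0563). Without that last library the cytokine calls lost against HLF were those for IL1A and IL11, both with the direction kept. A smaller share of all genes was called in that fit too. With the block IL1A was higher in HLF than in SNU475 (adjusted p = 0.0265). Since IL1A had to be high in HLF to be tested, its differences in favour of HLF were partly set by the filter. TNF, the archetypal NF-kB activator, was at 0.789 and 0.249 CPM in PLC/PRF/5, 2.19 and 1 CPM in HLF and 0.112 and 0.23 CPM in SNU475. Its call for HLF over SNU475 (adjusted p = 0.0119) was lost without the HLF control library 1 (adjusted p = 0.085) or the SNU475 control library 1 (adjusted p = 0.0722). With the block TNF was lower in PLC/PRF/5 than in HLF (adjusted p = 0.042).

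CSF1, the growth factor of macrophages, was at 9.81 and 6.47 CPM in untreated PLC/PRF/5, 163 and 130.5 CPM in HLF and 243 and 200.1 CPM in SNU475. PLC/PRF/5 stood far below both other lines (log2 fold change -4.17 ± 0.25, adjusted p = 2.93e-07 against HLF, log2 fold change -4.77 ± 0.26, adjusted p = 1.48e-07 against SNU475). HLF was called lower than SNU475 (log2 fold change -0.60 ± 0.22, adjusted p = 0.0477), a call that held in 4 of 12 fits leaving out 1 library each. CSF2 and CSF3, the growth factors of granulocytes and macrophages and of granulocytes, were low everywhere, with CSF3 at 3.83 and 2.74 CPM in HLF and 0 and 0.0575 CPM in SNU475 and no counts in the PLC/PRF/5 controls. On 129 against 1 counts, CSF3 had an HLF to SNU475 ratio of 116 with a 95% interval of 20.5 to 4617, counting error only. Both CSF2 and CSF3 had to be high in HLF to be tested, so their direction was partly set by the filter.

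**Figure D2:**
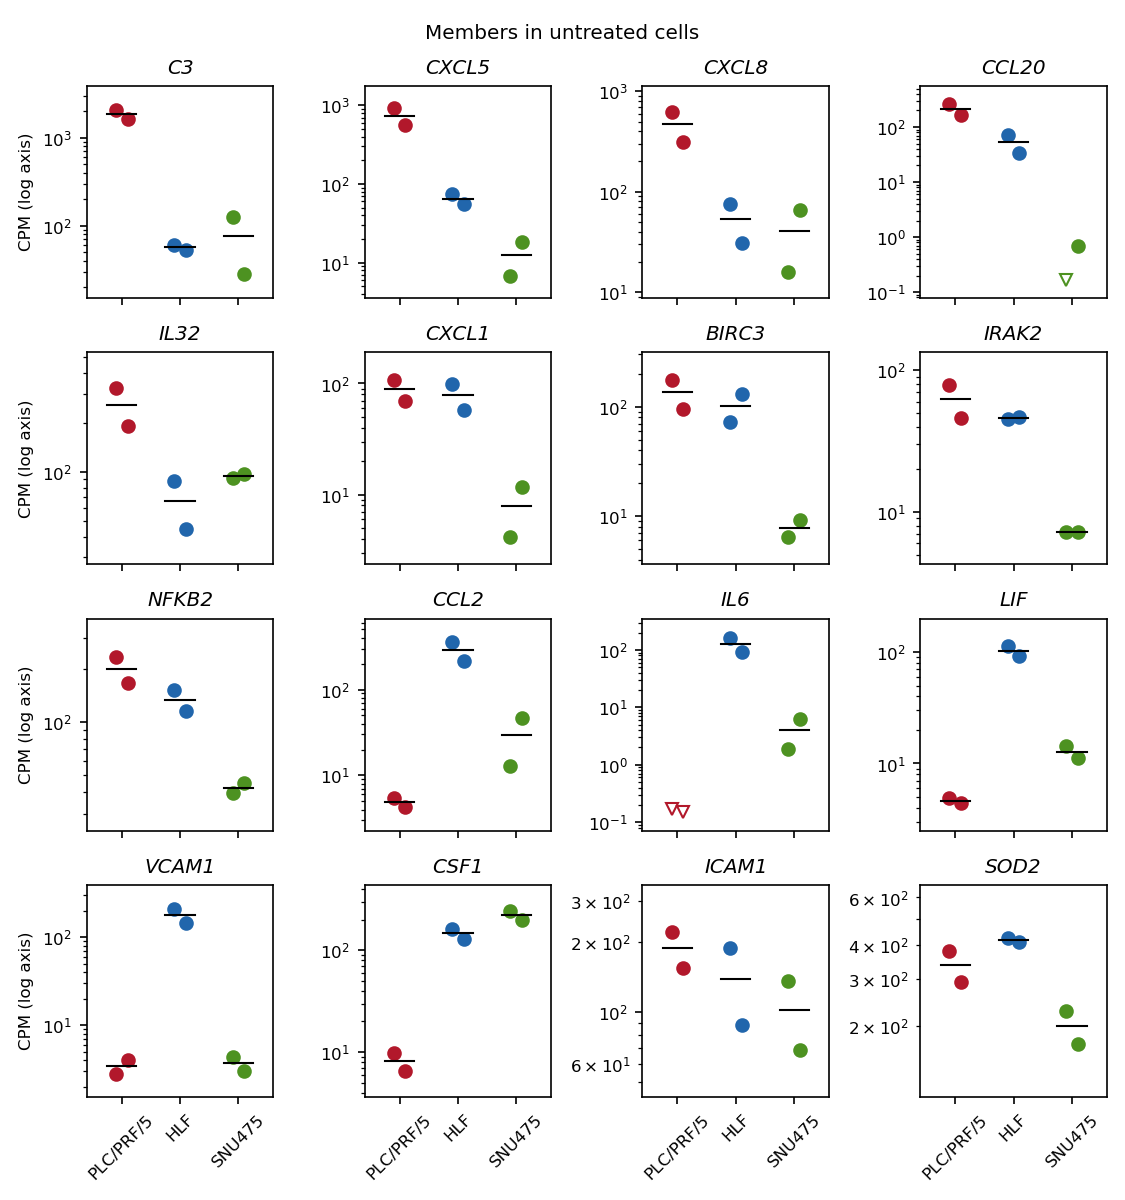
CPM (log axis) of 16 genes in the 2 control libraries of each line, chosen after values were seen. Points are libraries, lines are means, and open triangles are libraries with at most 3 counts, drawn at 3 counts. CSF1 is lowest in PLC/PRF/5 and IL6 highest in HLF.

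Of the 8 chemokines, 4 were higher (21.7% of all genes) and 2 lower (21.3%) in PLC/PRF/5 than in HLF. Against SNU475, 6 were higher (22.4%) and 1 lower (26.3%) in PLC/PRF/5. In HLF against SNU475, 5 were higher (17.2%) and 1 lower (21.9%). CXCL5, which attracts neutrophils, was at 918 and 565 CPM in untreated PLC/PRF/5, 74.2 and 55.8 CPM in HLF and 6.81 and 18.4 CPM in SNU475. All 3 pairs were called (log2 fold change 3.51 ± 0.52, adjusted p = 0.000252 for PLC/PRF/5 over HLF, log2 fold change 5.88 ± 0.59, adjusted p = 1.29e-05 over SNU475, and log2 fold change 2.37 ± 0.51, adjusted p = 0.00358 for HLF over SNU475). CXCL8, the classic neutrophil attractant, was at 626 and 312 CPM in PLC/PRF/5, 76.1 and 31 CPM in HLF and 15.7 and 66.2 CPM in SNU475, with PLC/PRF/5 above both (adjusted p = 0.00315 and 0.00152) and HLF against SNU475 not called (adjusted p = 0.661). CXCL1 was at 108 and 70.1 CPM in PLC/PRF/5, 98.6 and 58.2 CPM in HLF and 4.16 and 11.6 CPM in SNU475. SNU475 was the low line for CXCL1 (log2 fold change 3.49 ± 0.64, adjusted p = 0.001 for PLC/PRF/5, log2 fold change 3.31 ± 0.64, adjusted p = 0.00182 for HLF), and PLC/PRF/5 against HLF was not called (adjusted p = 0.835). CXCL1, CXCL2 and CXCL3 share exact transcript runs of 55 to 97 bases, and CXCL5 and CXCL6 share a run of 45 bases, so the split of reads within each set is uncertain. CXCL6 was at 5.64 and 5.47 CPM in PLC/PRF/5, 0.199 and 0 CPM in HLF and 1.24 and 2.3 CPM in SNU475, on 210 counts in PLC/PRF/5 and 4 in HLF, a ratio of 54.3 with a 95% counting interval of 20.9 to 201. CXCL2 was at 9.98 and 8.71 CPM in PLC/PRF/5, 33.6 and 22.2 CPM in HLF and 1.91 and 4.72 CPM in SNU475, and CXCL3 at 8.01 and 5.97 CPM, 8.35 and 4.11 CPM and 1.69 and 2.99 CPM in the same lines. SNU475 was the low line for both, without a called difference from HLF for CXCL3 (adjusted p = 0.0565, or 0.00602 with the replicate number as a block), and CXCL2 was lower in PLC/PRF/5 than in HLF (log2 fold change -1.58 ± 0.43, adjusted p = 0.0118). That last call was lost without the HLF control library 1 (adjusted p = 0.113) or the PLC/PRF/5 control library 1 or 2 (adjusted p = 0.0584 and 0.0857). The calls for PLC/PRF/5 over SNU475 were lost without PLC/PRF/5 control library 1 or SNU475 control library 1 for CXCL2 (adjusted p = 0.0747 and 0.109) and CXCL3 (adjusted p = 0.142 and 0.153), and for CXCL3 also without PLC/PRF/5 control library 2 (adjusted p = 0.0608).

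CCL2, which attracts monocytes, was the HLF chemokine, at 5.47 and 4.23 CPM in untreated PLC/PRF/5, 356 and 217 CPM in HLF and 12.9 and 46.7 CPM in SNU475. All 3 pairs differed (log2 fold change -5.89 ± 0.63, adjusted p = 2.11e-05 for PLC/PRF/5 over HLF, log2 fold change -2.62 ± 0.56, adjusted p = 0.00269 over SNU475, log2 fold change 3.27 ± 0.55, adjusted p = 0.000767 for HLF over SNU475). CCL20, the ligand of CCR6 on lymphocytes and dendritic cells, was at 257 and 167 CPM in PLC/PRF/5, 72 and 34 CPM in HLF and 0.112 and 0.69 CPM in SNU475. It was nearly silent in SNU475 (log2 fold change 9.03 ± 0.70, adjusted p = 2.02e-06 for PLC/PRF/5, log2 fold change 7.03 ± 0.68, adjusted p = 1.54e-05 for HLF). The receptor CCR6 was itself at 5.75 and 8.36 CPM in the PLC/PRF/5 controls and had 0 counts in the HLF and SNU475 controls.

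Of the 5 NF-kB subunits and inhibitors, 0 were higher (21.7% of all genes) and 1 lower (21.3%) in PLC/PRF/5 than in HLF. Against SNU475, 3 were higher (22.4%) and 1 lower (26.3%) in PLC/PRF/5, and 1 was higher in HLF (17.2%). Of the 4 called in PLC/PRF/5 against SNU475, NFKB2 alone was called without PLC/PRF/5 control library 1 (adjusted p = 0.0544 for NFKB1, 0.143 for RELB and 0.0922 for NFKBIA). The RELB call was lost without SNU475 control library 1 too (adjusted p = 0.117). The NFKBIA call there was also lost without PLC/PRF/5 control library 2 (adjusted p = 0.193), SNU475 control library 1 (adjusted p = 0.101) or 2 (adjusted p = 0.0872), and with no filter on low counts (adjusted p = 0.139). NFKB2, the precursor of the subunit of the alternative pathway, was at 234 and 166 CPM in PLC/PRF/5, 152 and 115 CPM in HLF and 39.3 and 44.6 CPM in SNU475, lower in SNU475 than in either (log2 fold change 2.25 ± 0.28, adjusted p = 6.42e-05 for PLC/PRF/5, log2 fold change 1.67 ± 0.27, adjusted p = 0.000658 for HLF). For PLC/PRF/5 over HLF, NFKB1, NFKB2 and RELB missed the threshold (adjusted p = 0.0709, 0.101 and 0.0711) but passed it with the replicate number as a block (adjusted p = 0.0338, 0.0214 and 0.00501). NFKBIA, the main inhibitor, was lower in PLC/PRF/5 than in HLF (log2 fold change -0.76 ± 0.19, adjusted p = 0.00662), though not without the PLC/PRF/5 control library 2 (adjusted p = 0.0742). NFKBIE, another inhibitor, was called in none of the 3 pairs, and with the block it was higher in PLC/PRF/5 (adjusted p = 0.0331) and HLF (adjusted p = 0.0343) than in SNU475. RELA, the common activating subunit, was at 82.1 and 81 CPM in PLC/PRF/5, 139 and 133 CPM in HLF and 98.5 and 92.2 CPM in SNU475.

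Among adaptors and survival genes, BIRC3, an inhibitor of apoptosis, and IRAK2, a kinase of interleukin 1 receptor signalling, set SNU475 apart. BIRC3 was at 176 and 95.7 CPM in PLC/PRF/5, 72.5 and 131 CPM in HLF and 6.41 and 9.32 CPM in SNU475. IRAK2 was at 78.9 and 46 CPM in PLC/PRF/5, 44.9 and 46.7 CPM in HLF and 7.26 and 7.19 CPM in SNU475. Neither differed between PLC/PRF/5 and HLF past the threshold (adjusted p = 0.387 and 0.224), and both were lower in SNU475 than in PLC/PRF/5 (log2 fold change 4.11 ± 0.42, adjusted p = 1.52e-05, and log2 fold change 3.11 ± 0.31, adjusted p = 1.18e-05). HLF was above SNU475 as well (log2 fold change 3.69 ± 0.42, adjusted p = 4.62e-05, and log2 fold change 2.66 ± 0.30, adjusted p = 5.13e-05). TNFAIP3, which encodes the A20 feedback inhibitor, was called in none of the 3, but with the block PLC/PRF/5 exceeded SNU475 (adjusted p = 0.00503). TNFAIP2, a TNF-induced gene, was at 161 and 127 CPM in PLC/PRF/5, 226 and 231 CPM in HLF and 96.3 and 45.2 CPM in SNU475, highest in HLF by value and called above SNU475 (log2 fold change 1.69 ± 0.36, adjusted p = 0.00305), while PLC/PRF/5 against HLF passed with the block (adjusted p = 0.00268).

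VCAM1, an adhesion molecule for leukocytes, was at 2.82 and 3.98 CPM in PLC/PRF/5, 209.7 and 145 CPM in HLF and 4.33 and 3.05 CPM in SNU475, and HLF was the high line. The difference was -5.70 ± 0.43 on the log2 scale for PLC/PRF/5 over HLF (adjusted p = 1.4e-06) and 5.58 ± 0.43 for HLF over SNU475 (adjusted p = 2.72e-06). ICAM1, the other adhesion molecule, was called in none of the 3 pairs, and PLC/PRF/5 over SNU475 passed with the block (adjusted p = 0.00421). C3, the central complement protein made by hepatocytes, was at 2079 and 1640.0 CPM in PLC/PRF/5, 60.6 and 53.2 CPM in HLF and 126 and 28 CPM in SNU475 (log2 fold change 5.03 ± 0.79, adjusted p = 0.000369 against HLF, log2 fold change 4.59 ± 0.77, adjusted p = 0.000548 against SNU475). The hepatocyte markers given above were high in the same line, and their part in this result was not tested. PTGS2, the inducible cyclooxygenase, was called in none of the 3. SOD2 was at 380.3 and 292 CPM in PLC/PRF/5, 425 and 409 CPM in HLF and 228 and 171 CPM in SNU475, lowest in SNU475 (log2 fold change 0.75 ± 0.20, adjusted p = 0.00926 for PLC/PRF/5, log2 fold change 1.06 ± 0.20, adjusted p = 0.00162 for HLF). Its exons overlap WTAP and ACAT2 on the opposite strand, and the call for PLC/PRF/5 was lost without the PLC/PRF/5 control library 1 (adjusted p = 0.106) or the SNU475 control library 2 (adjusted p = 0.0845).

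No gene of the module passed the threshold with lactate. The count called was 0 in each line, with 0% of all genes called in PLC/PRF/5, 0% in HLF and 0% in SNU475. It was also 0 for the mean effect over the 3 lines (0.42% of all genes, 0.305% higher and 0.114% lower) or the lactate by line interaction (0% of all genes). At an unadjusted p under 0.05 the counts were 4 in PLC/PRF/5 (5.92% of all genes), 0 in HLF (6.28%), 7 in SNU475 (11.6%), 4 for the mean (15.8%) and 3 for the interaction (3.51%). DESeq2 also called 0 members in each line and 1, CXCL1, for the mean (adjusted p = 0.045, with 4.86% of all genes called). In PLC/PRF/5 all 4 were lower (1.42% of all genes lower, 4.51% higher). In SNU475 4 were higher (6.4%) and 3 lower (5.19%). For the mean all 4 were lower (6.8%, against 9.02% higher). A missed threshold does not show that levels were alike, since 2 libraries per group leave wide errors.

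**Figure D3:**
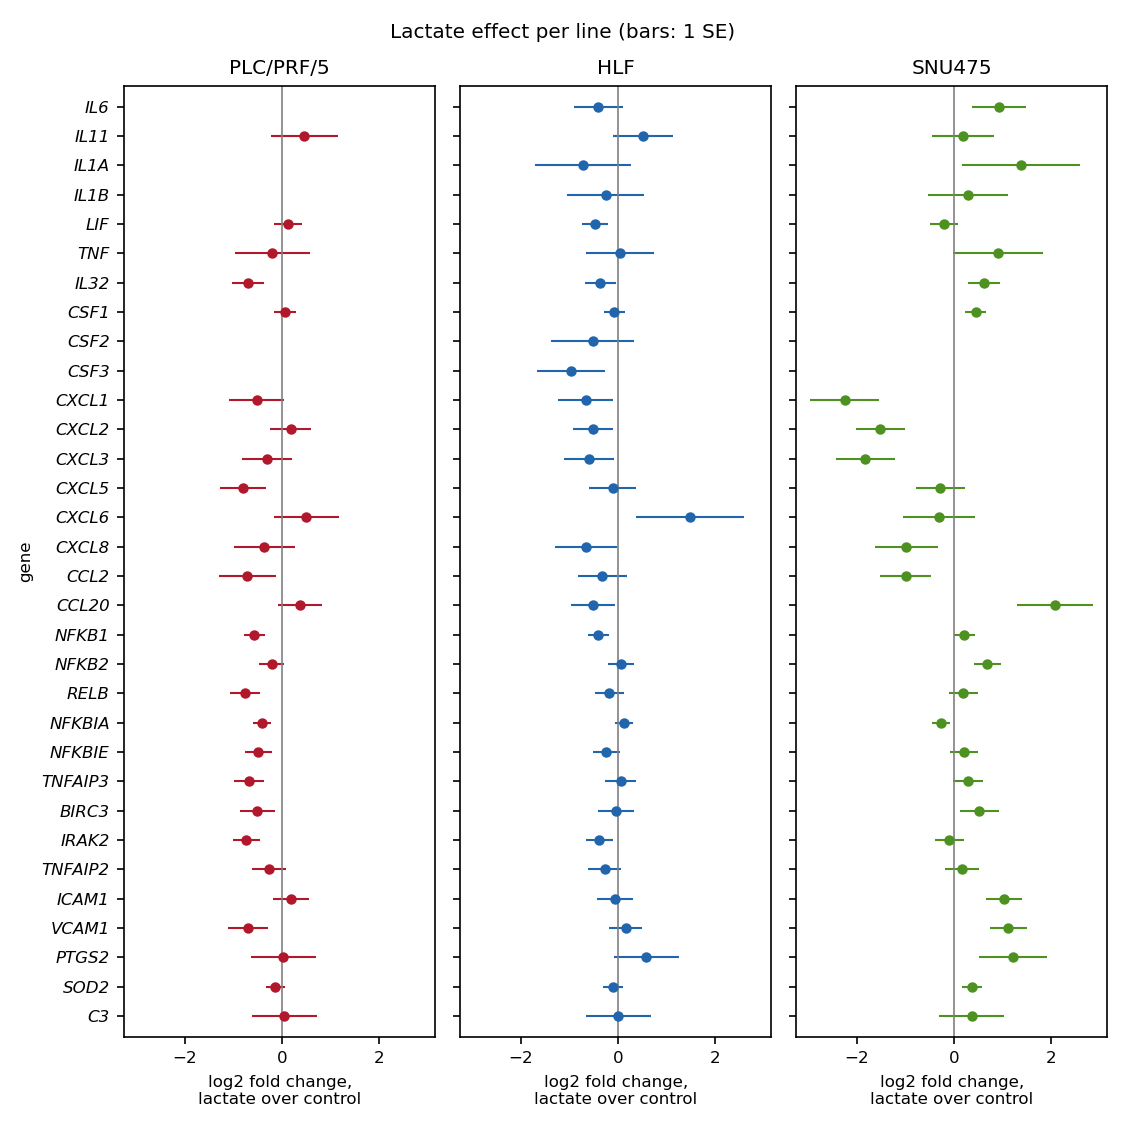
Log2 fold change of lactate over control for each gene, with 1 standard error, in PLC/PRF/5, HLF and SNU475, leaving out genes with at most 3 counts in both groups of a line. In SNU475 CXCL1, CXCL2 and CXCL3 lie left of 0 and CCL20, ICAM1 and VCAM1 right of it, none past the threshold.

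In SNU475 the genes with the smallest p had fold changes in both directions, negative for neutrophil chemokines and positive for adhesion genes. CXCL1 was at 2.86 and 0.407 CPM with lactate and 4.16 and 11.6 CPM in control libraries (log2 fold change -2.24 ± 0.71, adjusted p = 0.298). CXCL2 was at 1.68 and 0.61 CPM with lactate and 1.91 and 4.72 CPM in controls (log2 fold change -1.51 ± 0.51, adjusted p = 0.308). CXCL3 was at 0.373 and 0.949 CPM with lactate and 1.69 and 2.99 CPM in controls (log2 fold change -1.82 ± 0.61, adjusted p = 0.308). Both lactate libraries lay under both controls for each of the 3 genes.

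CCL20 was at 0.746 and 2.71 CPM with lactate and 0.112 and 0.69 CPM in controls (log2 fold change 2.08 ± 0.78, adjusted p = 0.337). VCAM1 was at 11.3 and 4.75 CPM with lactate and 4.33 and 3.05 CPM in controls (log2 fold change 1.12 ± 0.39, adjusted p = 0.31), and ICAM1 at 229 and 189.8 CPM with lactate and 136 and 68.6 CPM in controls (log2 fold change 1.03 ± 0.37, adjusted p = 0.321). NFKB2 was at 49 and 86.6 CPM with lactate and 39.3 and 44.6 CPM in controls (log2 fold change 0.69 ± 0.27, adjusted p = 0.357). Lactate libraries lay above controls for all 4. Non-overlap upwards held for 9 members (16.2% of all genes) and downwards for 4 (15.4%). Without SNU475 lactate library 1, CXCL2 (adjusted p = 0.0316), NFKB2 (0.0199) and PTGS2 (0.0418) were called, 3 of 32 members beside 9.21% of all genes. The lone lactate library was there assumed to vary like the other groups. C3 was at 168 and 31.3 CPM with lactate and 126 and 28 CPM in controls, and library 2, the one with the higher mitochondrial share, was low in both groups. The part of that share was not tested.

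**Figure D4:**
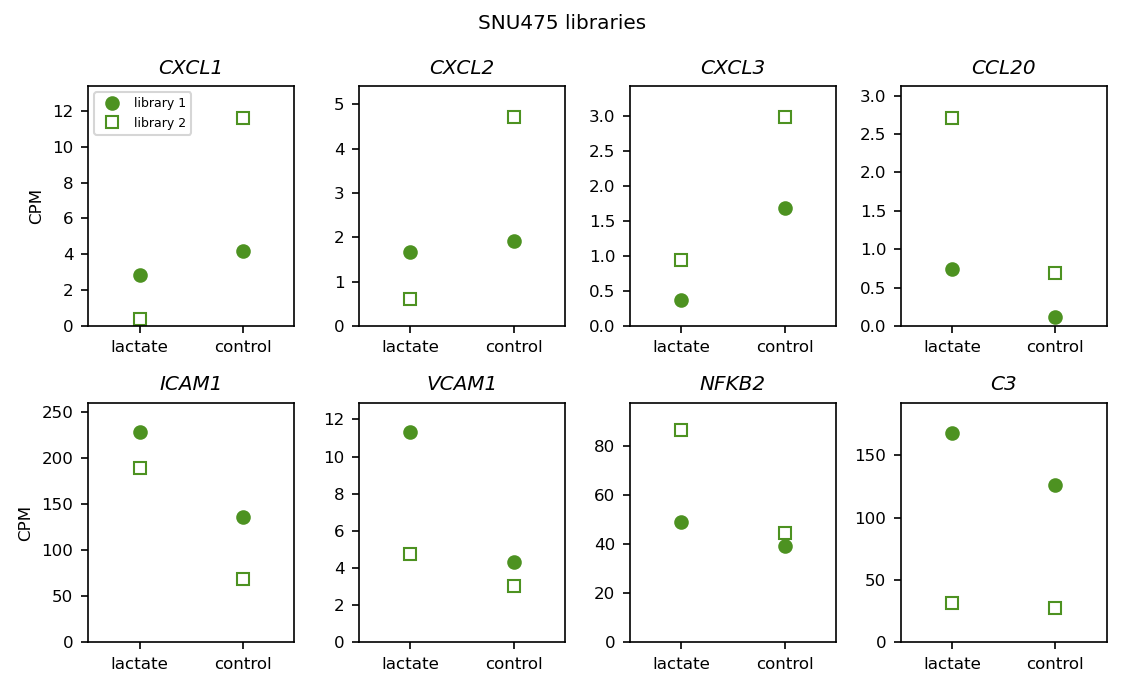
CPM of 8 genes in the SNU475 libraries, lactate left and control right, circles for library 1 and squares for library 2. C3 separates by library number. For the chemokines CXCL1 to CXCL3 both lactate libraries lie under both controls, with no gene past the threshold. Such downward non-overlap held for 4 of the 32 members (12.5%), against 15.4% of all genes.

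In PLC/PRF/5 the genes with the smallest p were pathway components with negative fold changes. NFKB1 was at 42.9 and 35 CPM with lactate and 66.1 and 49.7 CPM in controls (log2 fold change -0.57 ± 0.22, adjusted p = 0.756). RELB was at 40.6 and 32.9 CPM with lactate and 73.6 and 51.4 CPM in controls (log2 fold change -0.76 ± 0.31, adjusted p = 0.789). IRAK2 was at 43.7 and 31.6 CPM with lactate and 78.9 and 46 CPM in controls (log2 fold change -0.73 ± 0.28, adjusted p = 0.758). Libraries did not overlap for these, among 11 members lower in that sense (21.8% of all genes) and 1 higher (28.5%). Among the 11, IL6 rests on 2 counts. CXCL5, at 552 and 304 CPM with lactate and 918 and 565 CPM in controls (log2 fold change -0.79 ± 0.48, adjusted p = 0.925), was called with the replicate block (-0.81 ± 0.14, adjusted p = 0.0328), as were 0.659% of all genes.

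In HLF the 3 smallest p belonged to NFKB1, LIF and CSF3. NFKB1 was at 28.8 and 31.9 CPM with lactate and 38.1 and 42.2 CPM in controls (log2 fold change -0.40 ± 0.22, adjusted p = 0.844). LIF was at 61.9 and 86.3 CPM with lactate and 113 and 91.6 CPM in controls (log2 fold change -0.46 ± 0.27, adjusted p = 0.851). CSF3 was at 1.27 and 2.09 CPM with lactate and 3.83 and 2.74 CPM in controls (log2 fold change -0.97 ± 0.70, adjusted p = 0.89). Lactate libraries lay under controls in each, as for 8 members (19.9% of all genes), with 1 the other way (19.6%). For IL6, at 89.8 and 105 CPM with lactate and 164 and 93.8 CPM in controls, control library 1, which had the highest mitochondrial share in HLF, was the high one, and the part of that share was not tested.

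Over the 3 lines, 3 members were positive in every line (20.2% of all genes) and 6 negative (17.7%). The 6 were CCL2, CXCL1, CXCL3, CXCL5, CXCL8 and IRAK2. No member had non-overlapping libraries in all 3 lines (2.72% of all genes higher, 3.37% lower). Positive fold changes numbered 12 in PLC/PRF/5 (52.8% of all genes), 9 in HLF (48%), 21 in SNU475 (51%) and 15 for the mean (54.2%). In PLC/PRF/5 5 of the 32 genes had at most 3 counts in both groups, and without them the median fold change was -0.31. The median log2 fold change of the members was -0.24 in PLC/PRF/5, -0.25 in HLF and 0.21 in SNU475, against 0.03, 0.00 and 0.01 over all genes. The mean effect was smallest in p for CXCL1 (log2 fold change -1.14 ± 0.36, adjusted p = 0.154), CXCL3 (log2 fold change -0.91 ± 0.32, adjusted p = 0.193) and IRAK2 (log2 fold change -0.40 ± 0.17, adjusted p = 0.267). Without SNU475 lactate library 1, CXCL1 was the 1 member called (adjusted p = 0.0441), beside 7.69% of all genes. With the replicate block CXCL3 (adjusted p = 0.028), CXCL5 (0.0254) and CCL2 (0.0432) were called, 3 of 32 members beside 6.91% of all genes. In the interaction VCAM1, IL32 and CCL20 had the smallest unadjusted p (0.0255, 0.0399 and 0.0444, adjusted p = 1 each).

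Genes around the module were read from lists. Of 34 NF-kB signalling components none was called for lactate in any line or the mean, and 8 were higher (21.7% of all genes) and 13 lower (21.3%) in untreated PLC/PRF/5 than in HLF. LTBR, the lymphotoxin beta receptor that feeds the alternative pathway, was at 0.0564 and 0.0498 CPM in the PLC/PRF/5 controls, 314 and 211 CPM in HLF and 126 and 69.8 CPM in SNU475 (adjusted p = 9.63e-08 for PLC/PRF/5 against HLF). NFKBIZ, a nuclear regulator of IL6 and related genes, was at 35.1 and 46.5 CPM in PLC/PRF/5, 16.1 and 25.1 CPM in HLF and 1.24 and 1.84 CPM in SNU475 (log2 fold change 4.72 ± 0.37, adjusted p = 1.97e-06 for PLC/PRF/5 against SNU475). Of 13 other NF-kB targets 9 were lower (21.3% of all genes) and 0 higher (21.7%) in PLC/PRF/5 than in HLF, among the 9 the acute phase gene SAA1, at 0.226 and 0 CPM in PLC/PRF/5, 56.3 and 48.1 CPM in HLF and 1.01 and 0.518 CPM in SNU475. Of 10 genes of the IL-6 and STAT3 response 8 were testable. Of these, 4 were higher (21.7% of all genes) and 2 lower (21.3%) in PLC/PRF/5 than in HLF. Their median log2 fold change was 3.31, against 0.00 over all genes. FGA (log2 fold change 12.74 ± 0.85, adjusted p = 5.67e-07) and FGG (log2 fold change 10.38 ± 0.75, adjusted p = 1.03e-06), fibrinogen chains made by hepatocytes, were among the 4, in the line with the high hepatocyte markers. SOCS3, a feedback inhibitor induced by IL-6 and among the 2, was at 11 and 7.56 CPM in PLC/PRF/5, 143 and 181 CPM in HLF and 67.7 and 33.2 CPM in SNU475 (log2 fold change -4.12 ± 0.34, adjusted p = 2.82e-06 for PLC/PRF/5 against HLF). Of 17 receptors 12 were testable, and ITGA4, part of the VCAM1 ligand, was at 0.0564 and 0.0498 CPM in PLC/PRF/5, 18.6 and 25.2 CPM in HLF and 168 and 116 CPM in SNU475.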

How the data were processed

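Total RNA of 12 libraries was sequenced from directional libraries, per the labels' protocols. The deposited tables hold RSEM's expected counts, which are estimated counts, and TPM, per the file headers. Tools listed in the submitters' processing notes are STAR, RSEM, FastQC and DESeq2, with no version, and the builds listed are mouse (mm10, GRCm38). All 62757 rows have human identifiers and the tables were treated as human data, with the build not given in the sources used here. A total of 47 pseudoautosomal Y rows was summed with their X copies, and counts were rounded. Genes were filtered by edgeR's filterByExpr (minimum count 10, total 15), scaled by TMM (factors 0.794 to 1.17) and tested by edgeR 4.0.16 (R 4.3.3) with the quasi-likelihood test on 6 groups in 1 fit, with Benjamini-Hochberg adjustment over 18355 genes. TPM was used only to compare levels between genes. Errors of log2 fold changes (SE) are approximate, taken as the absolute log2 fold change divided by the square root of the test's F statistic. Intervals cover counting error only. DESeq2 1.42.0 was an alternative, and the tests were checked on simulated data.

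Values were named for the 3 members with the smallest p in each lactate comparison and the interaction, and the 5 smallest in each untreated comparison. Others named were chosen after their values were seen. The members and lists were chosen with earlier results of these data known. Deviations of same-numbered libraries correlated at 0.132 in PLC/PRF/5, 0.101 in HLF and 0.446 in SNU475, above the limit of 0.1. The main tests nevertheless had no block for the replicate number, and a fit with that block was run as an alternative. Adjusted p-values given without mention of the block therefore ignore any pairing. PLC/PRF/5 libraries titled 2 carry number 3 in the deposited names.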

Additional observations from a re-analysis of the deposited data

How the results depend on the processing

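Of 468 alternatives for the member results picked by smallest p, 460 kept direction and side of the threshold, 8 gained a call, and none lost one or reversed. The picked lactate results had no call to lose, and the picked untreated results were the strongest calls. The tally therefore does not speak for the other members. Counts that moved by more than 1.5 times are given here, and the cause was not tested. With DESeq2, all genes called were 86 in PLC/PRF/5, 36 in HLF, 202 in SNU475, 892 for the mean (77 in edgeR) and 9 for the interaction, with 1 member for the mean. With no filter on low counts they were 188, 111, 414, 922 and 136 in that order, with 7 members in SNU475 (CCL2, CCL20, CXCL1, CXCL2, CXCL8, ICAM1 and VCAM1), 5 for the mean and 3 for the interaction (1.29%, 2.87% and 0.424% of all genes). With the replicate block they were 121, 3, 46, 1268 and 6, with 1 member in PLC/PRF/5 and 3 for the mean, and 23, 26 and 22 members in untreated PLC/PRF/5 against HLF, PLC/PRF/5 against SNU475 and HLF against SNU475 (51.4%, 57.7% and 49% of all genes). A line's 4 libraries alone gave 569 genes in PLC/PRF/5 and 1 in HLF. Leaving out both SNU475 libraries numbered 2 gave 138 genes in PLC/PRF/5, 39 in HLF and 530 for the mean, and C3 was then lower in HLF than in SNU475 (-1.19, adjusted p = 0.000198). Leaving out 1 library gave 0 to 19 genes in PLC/PRF/5, 0 to 1788 in SNU475, 0 to 1493 for the mean and 0 to 203 for the interaction, the highest without SNU475 lactate library 1 except in PLC/PRF/5, and 0 to 3 members in SNU475, 0 to 1 for the mean and 14 to 25 in PLC/PRF/5 against SNU475. Of the untreated calls 13 of 18, 14 of 22 and 15 of 18 held in all 12 such fits. Between levels that are both under 3 counts in a library, about 0.116 to 0.203 CPM, differences were not detectable at this depth.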

Other observations

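Receptors and downstream genes outside the module also differed between untreated lines. IL1R1, the signalling receptor of interleukin 1, was at 117 and 119 CPM in PLC/PRF/5, 12.7 and 18.8 CPM in HLF and 40.3 and 40.8 CPM in SNU475 (log2 fold change 2.90 ± 0.25, adjusted p = 3.99e-06 for PLC/PRF/5 against HLF). FGA, a fibrinogen chain made by hepatocytes in the acute phase response, was at 850.3 and 984 CPM in PLC/PRF/5, 0.149 and 0.105 CPM in HLF and 0.844 and 0.0575 CPM in SNU475. The HLF levels of FGA stood at 3 counts or fewer per library, so the size of its fold change against HLF is uncertain. PTGER2, a receptor of the prostaglandin made through PTGS2, was at 4.9 and 2.94 CPM in PLC/PRF/5, 0.0497 and 0.0527 CPM in HLF and 14 and 11.4 CPM in SNU475. CCL5, a chemokine and NF-kB target, was at 0.169 and 0 CPM in PLC/PRF/5, 74.3 and 33.9 CPM in HLF and 1.69 and 1.38 CPM in SNU475. It was called lower in PLC/PRF/5 than in HLF (edgeR quasi-likelihood test, adjusted p = 4.09e-06). Its PLC/PRF/5 levels stood at 3 counts or fewer per library, so the size of the fold is not given.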
